A study of Mus musculus with 18 samples.

Results

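The genes described here were at or near background in C3H10T1/2 cells carrying wild-type histone H3.3 and expressed in the same line carrying H3.3K36M. C3H10T1/2 cells derive from C3H mouse embryos and can form several mesenchymal tissues, and K36M is a lysine-to-methionine substitution on the tail of histone H3. Members had a normalised estimated count of 10 or less in both H3.3 wild-type libraries and of 50 or more in both H3.3K36M libraries. Of 20325 genes measured, 7690 met the first condition and 172 met both. Hox, Sprr, Prl, Wnt, Ccl, Cxcl, Il, Krt, Hb, Fox, Zfp and Hist symbols and Stra6, Lgr5, Igfbp5 and Psca, together 13 genes, were left out, so 159 members remain. The difference between these 2 lines chose the members, so it is given as a description without a test.

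The study compared 18 libraries of total RNA. Cultured cells stably expressed FLAG-HA-tagged H3.3 wild type (n = 2), H3.3K36M (n = 2) or H3.1K36M (n = 2), or were parental cells given a scramble siRNA (control siRNA, n = 3) or siRNAs against Nsd1, Nsd2 and Setd2 (HMT siRNA, n = 3), all at passage 10 to 15. Tumors (n = 6) grew for 5 to 6 weeks under the skin of athymic female SCID mice, 6 to 8 weeks old, after H3.3K36M cells in Matrigel were injected into both flanks. The parental siRNA cells carry no tagged histone, and 1 line stands for each tagged histone. Separate cultures are not stated for the libraries of a group, and 2 tumors may share a mouse, so every p-value here reflects a spread between libraries that may be technical.

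Methylation of lysine 36 on H3 is written over the bodies of active genes and in broad intergenic domains by Nsd1, Nsd2 and Setd2. K36M histones inhibit these enzymes, and H3K36 methylation hinders the Polycomb complex that lays down the repressive mark H3K27me3. Loss of H3K36 methylation is known to let that mark spread and thin out. Genes normally silent in mesenchymal cells include germline genes, the genes of other tissues and, without infection, much of the interferon response.

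The libraries held 13993307 to 56041808 estimated reads, and 1 read was worth 0.438 to 1.73 normalised counts. In the wild-type libraries a value of 10 stood for 7.62 and 7.09 estimated reads, and in the H3.3K36M libraries 50 stood for 87.2 and 53.3. Levels below these are imprecise. Wild-type libraries listed 28.0% and 28.1% of genes at 0, and H3.3K36M libraries 18.7% and 20.5%, from 23343303 to 25322440 against 34022142 to 56041808 reads. Mesenchymal markers were on in the cultured cells (at least 9 of 10 at 50 or more in each group). Setd2 fell from a mean of 3247 to 1134 in HMT siRNA cells, Nsd1 from 4723 to 3279 and Nsd2, listed as Whsc1, from 1588 to 1059. Of the 6 tumors, number 6 stood apart. In 36 members 1 tumor lay far from the others, and in 30 of these it was the highest value of tumor 6. That tumor had the highest summed skeletal muscle, endothelial and lymphocyte markers. The lowest summed macrophage, keratinocyte and skin, Schwann and nerve, and mast cell markers were also those of tumor 6. Results that rest on tumors are given with and without it where it matters.

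In H3.3K36M cells the mean level of the members ran from 51.9 to 943, with a median of 106.6 and quartiles of 73.3 and 171.7. For 69 members both libraries lay between 50 and 100. In wild-type cells 13 members were listed at 0 in both libraries. The share of all genes low in wild-type cells that reached 50 in both H3.3K36M libraries was 2.24%. Just inside the wild-type limit were, among others with the same value, 4930506M07Rik, Crmp1 and Gsdmd at 9.88, and just outside it Card10 at 10.11 and Arhgap9 and Negr1 at 10.5. Just inside the H3.3K36M limit were Dlgap3 at 50.6, Pcdh17 at 51.3 and Rhbdl2 at 52.3, and just outside it Tmtc2 and Ttll6 at 49.9 and Amigo2 at 49.7. Below, a gene is called on at 50 or more in every library of a group and low at 10 or less in every library.

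**Figure D1:**
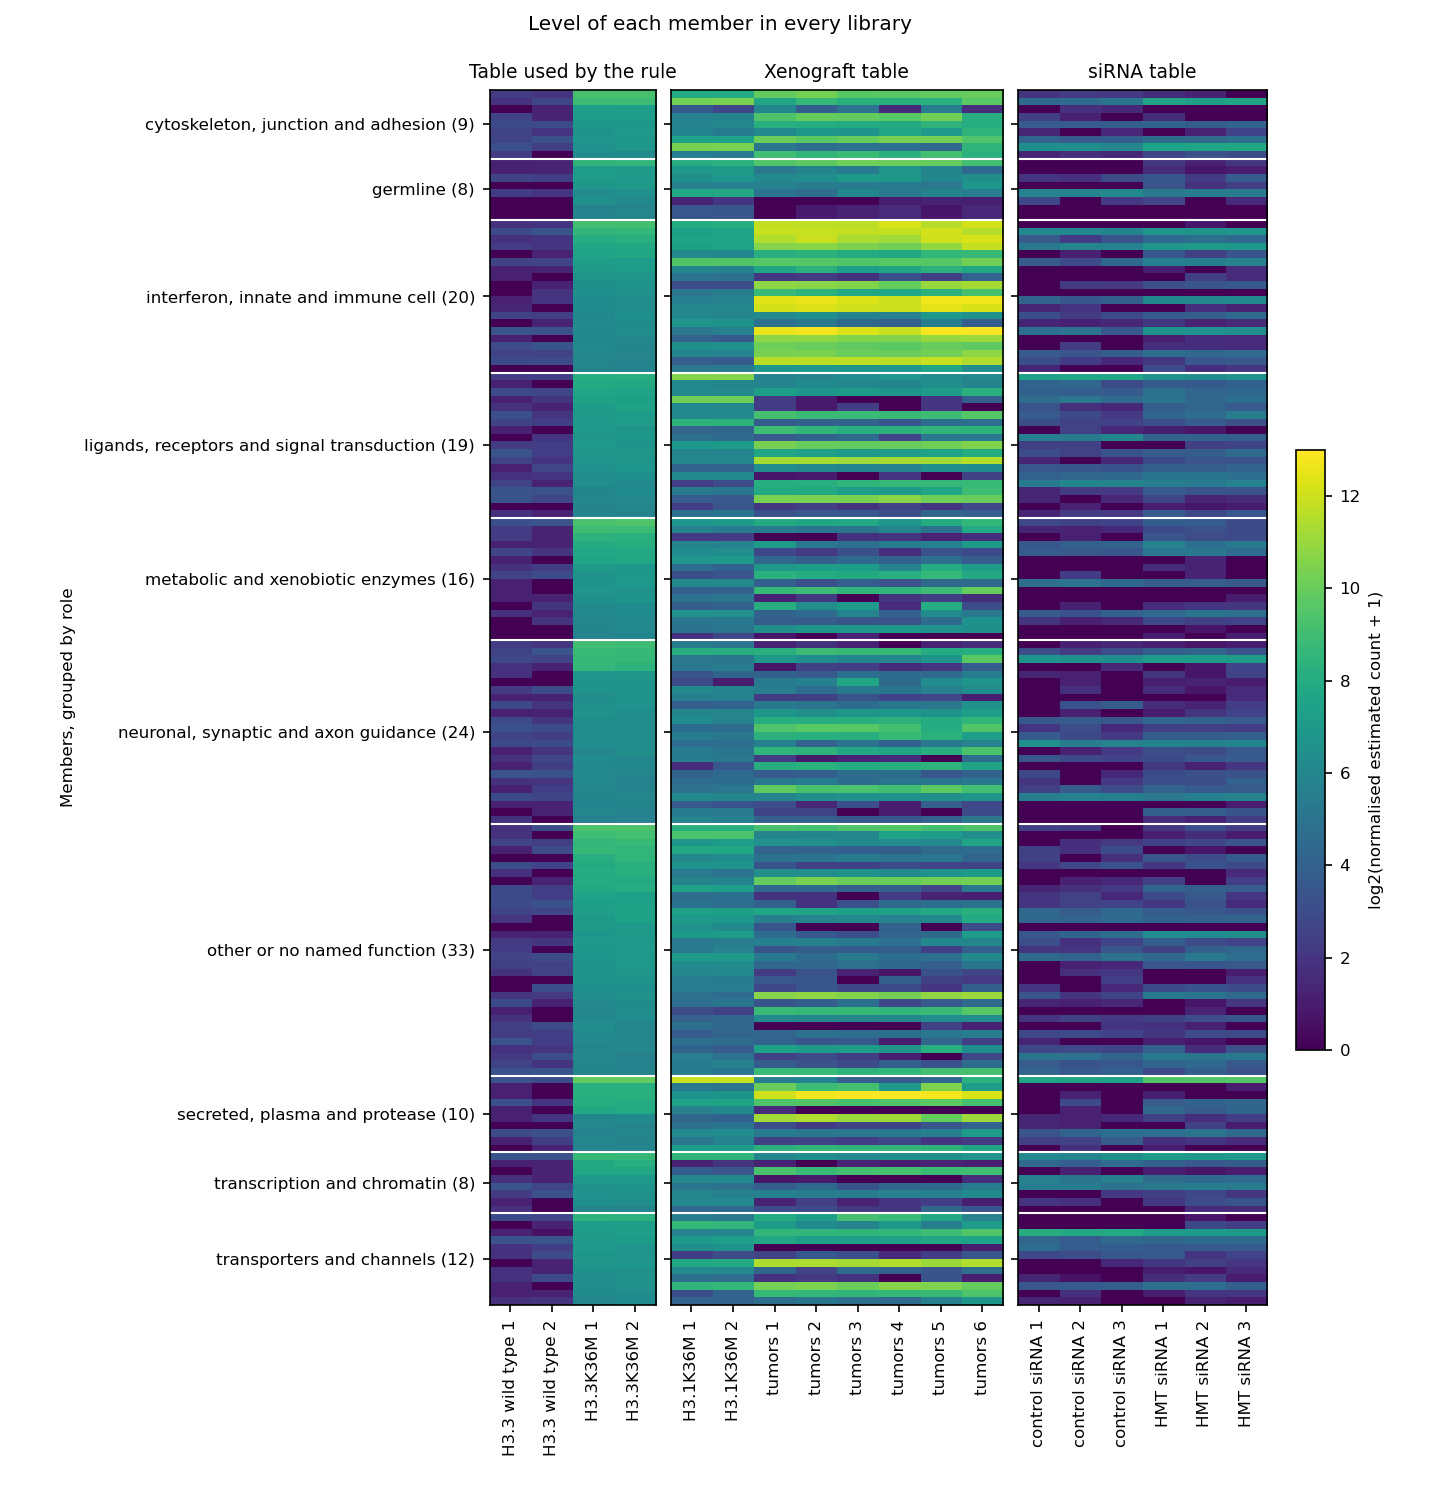
Level of the 159 members (rows, grouped by role and sorted by H3.3K36M mean) in each library (columns), as log2(normalised estimated count + 1), with 1 panel for each separately scaled table. The members change little between the libraries of a cultured group and range from low to high in H3.1K36M cells (73 on and 11 low). They are mostly dark in both siRNA groups, and split in the tumors into strongly lit and dark rows.

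The first question was how far the same genes are on when the substitution sits on H3.1. In H3.1K36M cells 73 members (45.9%) were on and 11 were low. Of all 7690 genes low in wild-type cells, 1.7% were on and 91.3% low, and without the members 0.77% were on (58 of 7531). H3.1K36M levels lay below both H3.3K36M libraries for 133 members and above both for 20, against 38.9% and 35.6% of all genes, and the median ratio of H3.1K36M to H3.3K36M means was 0.431. The H3.3K36M libraries chose the members for being high, so nothing is read from these counts or this ratio.

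Itih2, an inter-alpha-trypsin inhibitor heavy chain that binds hyaluronan in plasma, was the highest member in both mutant lines. It stood at 9.19 and 7.06 in wild-type, 932 and 954 in H3.3K36M, and 3887 and 3833 in H3.1K36M cells. Rnf128, a membrane ubiquitin ligase known from anergic T cells, was at 271 and 295 in H3.3K36M and at 1553 and 1528 in H3.1K36M cells. Pkp2, the desmosomal plakophilin, was at 94.03 and 115 in H3.3K36M cells and at 1282 and 1321 in H3.1K36M cells. The H3.1K36M and tumor levels come from a second table, on which the H3.3 libraries are nearly the same (ratios of 0.977 to 0.992). These genes stood out on the H3.1K36M side, as did Ankrd1, a stretch-responsive YAP target (1226 and 1319 against 484 and 493.3). Arhgap36, a Hedgehog pathway activator that inhibits protein kinase A, reached 1151 and 1137 against 177 and 169. Havcr2, the immune checkpoint receptor TIM-3, was at 718 and 704 against 156 and 141.

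At the other end, Crym, a thyroid hormone-binding protein, was at 336 and 306 in H3.3K36M cells and at 3.49 and 3.83 in H3.1K36M cells. Asxl3, a subunit of the H2A deubiquitinase complex, was at 237 and 280 against 1.40 and 2.88. Kcnab1, a potassium channel subunit, was at 115 and 109 against 4.19 and 6.71, and Cyp2f2, a lung cytochrome P450, at 100.3 and 122 against 7.68 and 9.58. Cadm3, a neuronal adhesion molecule, and Plac8 were also low in H3.1K36M cells. These genes were on in 1 mutant line and low in the other. Each line is a single line, so line and histone variant cannot be told apart.

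**Figure D2:**
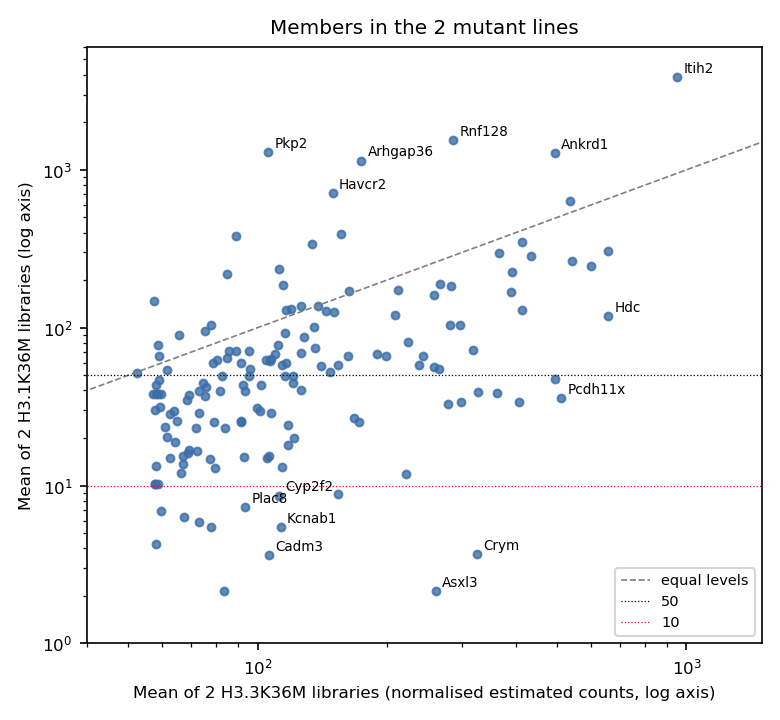
Mean level of each member in the H3.1K36M libraries (n = 2, vertical) against the H3.3K36M libraries (n = 2, horizontal), both axes logarithmic, with the line of equal levels and the limits of 50 and 10. Most of the 159 points lie under the line of equal levels, 73 members have both H3.1K36M libraries at 50 or more, and Itih2, Rnf128, Pkp2, Ankrd1, Arhgap36 and Havcr2 lie above the line.

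Silence in the H3.3 wild-type line was next set beside the parental cells given control siRNA. Of the members, 107 were low and 8 were on in control siRNA cells, against 95.7% and 0.299% of all genes low in the wild-type line. The libraries of this table are scaled to values 1.30 to 1.32 times smaller than in the table that chose the members. On that table's scale 102 were low and 12 on. Most members were thus low in both reference groups, and a few were not. Slc8a1, the sodium-calcium exchanger, was at 1.33 and 0.522 in wild-type cells but at 269, 233 and 247 in control siRNA cells. In the same table H3.3K36M cells were lower, at 109 and 125. Rnf128 was at 173, 196 and 209, beside 207 and 226 in H3.3K36M cells, and Itih2 at 203, 195 and 185. In 152 of the 159 members every H3.3K36M library lay above every control siRNA library, and in 7 it did not (Gpr85, Mageh1, Pde3b, Pkp2, Rnf128, Robo1 and Slc8a1). Since the H3.3K36M libraries chose the members for being high, nothing is read from the 152. It also stands without the share of all genes. Phactr1, a regulator of actin and protein phosphatase 1, was at 105, 91.6 and 88.2, Pkp2 at 88.02, 86.6 and 60.5, and the Polycomb-group protein Sfmbt2 at 66.8, 56.5 and 86.5. Robo1, an axon guidance receptor, was low in wild-type cells (6.56 and 7.06) and at 95.6, 42.7 and 53.6 in control siRNA cells. These genes were at 10 or less in the wild-type line and well above it in parental cells, while 30 other members were listed at 0 in all 3 control siRNA libraries.

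The knockdown asked whether the members also come up when the methyltransferases themselves are reduced. These 6 libraries had no part in choosing the members. In HMT siRNA cells 84 members (52.8%) were low, against 95.8% of all genes low in wild type. There 13 members (8.18%) were on, against 0.442%. Of the 56 members with enough signal to be tested, 27 were higher (48.2%), 6 were lower (10.7%) and 23 did not pass. Over all 12248 genes tested, 32.5% were higher and 32.6% lower, and over the 190 other tested genes low in wild-type cells 24.7% were higher and 24.7% lower. The median log2 fold change was 0.71 for tested members, -0.0025 for all genes and 0.13 for other genes low in wild type. At 2-fold or more 20 members were higher and 3 lower, against 4.55% and 4.52% of all genes. The other 103 members were too low to test, and 7 of the 56 (Apob, Gimap9, Gm4902, Gm5622, Napsa, Plekhg1 and Rps6ka6) entered only because their HMT siRNA libraries passed the filter on low values. Among the 49 with a library at 10 or more in both groups 20 were higher and 6 lower, against 32.5% and 32.3% of all such genes. With no filter 154 were tested and 60 were higher, a count given without the share of all genes, so nothing is read from it. The control siRNA libraries were shallower (13993307 to 19346829 estimated reads) than the HMT siRNA libraries (22406719 to 33107480), and the part of depth in these counts was not tested.

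**Figure D3:**
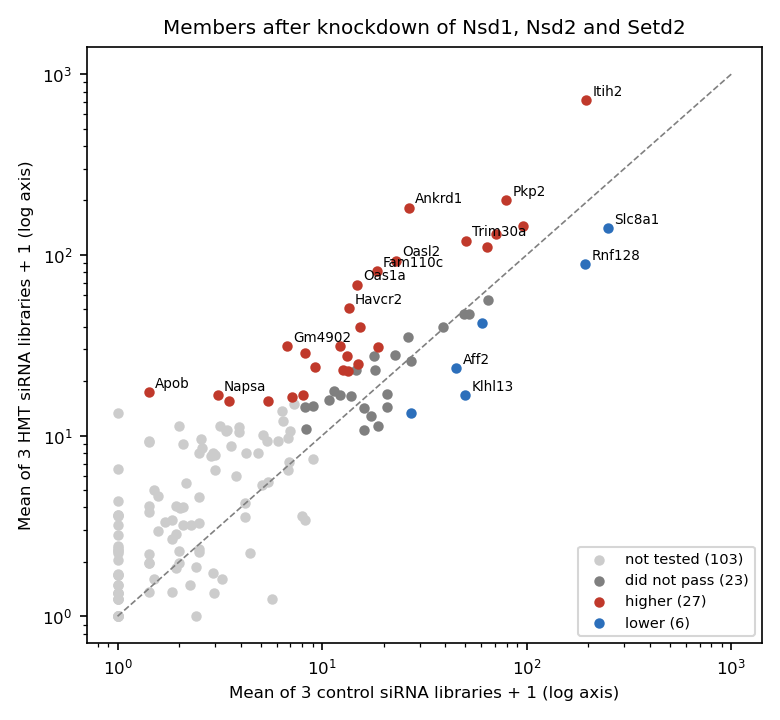
Mean level + 1 of each member in HMT siRNA cells (n = 3, vertical) against control siRNA cells (n = 3, horizontal), both axes logarithmic, colored by the limma call. The 27 higher members lie above the dashed line of equal levels and include Itih2, Ankrd1, Oas1a and Oasl2, and the 6 lower ones include Slc8a1, Rnf128, Aff2 and Klhl13.

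The last comparison followed the members into tumors grown from H3.3K36M cells. In all 6 tumors 78 members (49.1%) were on, against 9.87% of all genes low in wild-type cells, and 25 were low, against 67.8%. The H3.3K36M libraries chose the members for being high, so nothing is read from the order of tumors and these libraries. For 53 members every tumor lay above both cultured H3.3K36M libraries and for 80 every tumor lay below, against 35.3% and 32.3% of all genes. Both in H3.1K36M cells and in every tumor 42 members were on. Another 4, Crym, Crisp1, Ptprh and Acsm1, were on in H3.3K36M cells and low in every other group. The counts of 42 and 4 stand without the shares of all genes, so nothing is read from them.

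Tumors also hold host cells, and fewer cells of a type cannot be told apart from less RNA per cell in bulk samples. Hosts of this kind lack most T and B cells but keep macrophages, NK cells, vessels and stroma. Macrophage markers (13 of 14 in the table) were all on in the tumors, with a summed level of 234600 to 338300, against 537 to 541 in H3.3K36M cells and 598 to 654 in H3.1K36M cells. Ptprc, the pan-leukocyte antigen CD45, was at 2418 to 5592 in tumors and at 4.62 and 6.64 in H3.3K36M cells, where C1qa and C1qb were listed at 0. Endothelial markers were all on in the tumors (10 of 10; 13420 to 32210) and summed to 787 to 859.5 in H3.3K36M cells, with Cldn5 at 0. The NK cell and lymphocyte markers summed to 2228 to 9463 in tumors (4 of 8 on) and to at most 7.03 in H3.3K36M cells. Keratinocyte and skin markers summed to 394 to 31140 in tumors (2 of 8 on in all 6) and to 338.5 to 380.0 in H3.3K36M cells, with Krt1 at 0. The part of these cells in the tumor levels was not tested.

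Tumors were tested against H3.1K36M cells, since neither group chose the members. These groups differ in line, histone variant and growth in the mouse, which cannot be told apart. Of 154 members tested, 65 were higher in tumors (42.2%), 53 lower (34.4%) and 36 did not pass. Of these 154, 20 had every tumor under 10 and 6 had every H3.1K36M library under 10, so they entered the test through the other group alone. Among the 128 with a library at 10 or more in both groups 60 were higher and 33 lower, against 36.3% and 39% of all such genes. Over all 14686 genes tested 42.5% were higher and 34.2% lower, near the shares of the members. Other genes low in wild-type cells moved mostly up (75.2% higher and 5.82% lower of 2130 tested). At 2-fold or more 64 members were higher and 53 lower, against 28.6% and 20% of all genes. The median log2 fold change was 0.29 for members, 0.19 for all genes and 3.64 for other genes low in wild type. After quantile normalisation, which moved the median of all genes to -0.08, 53 members were higher and 77 lower. Without tumor 6 the counts were 69 and 60. The shares of all genes called under these 2 settings are not given here, so no shift of the members is read from these counts.

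**Figure D4:**
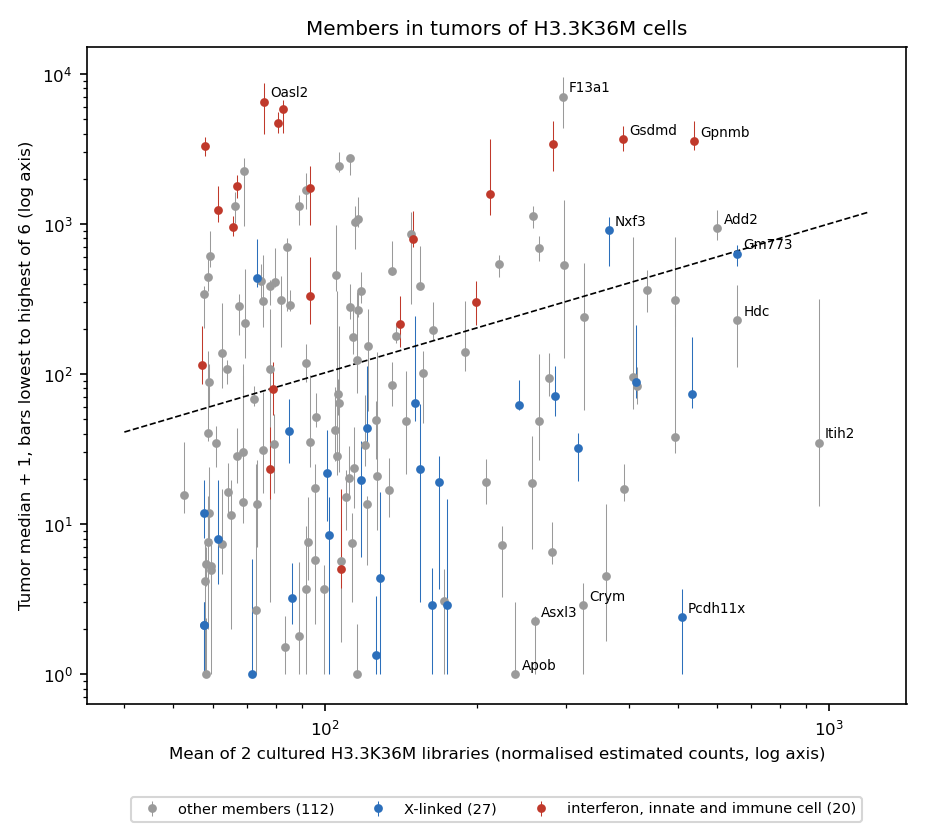
Median level + 1 of each member over 6 tumors (vertical, bars from the lowest to the highest tumor) against the mean of the cultured H3.3K36M libraries (n = 2, horizontal), both axes logarithmic, with a line of equal levels. Of the 20 members of the interferon, innate and immune cell role 18 were on in all tumors, while many X-linked members lie far under the line. The cultured H3.3K36M libraries chose the members, so nothing is read from their place beside the line.

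Members were sorted into roles by the known function of their products, after their values were in view. The interferon, innate and immune cell role holds 20 genes. In H3.1K36M cells 12 of 20 were on, against 1.7% of all genes low in wild-type cells. In HMT siRNA cells all 8 that could be tested were higher, where 32.5% of all genes and 24.7% of other genes low in wild type were. Of the 8, Gimap9 was tested only through its HMT siRNA libraries. The role was drawn up with these values in view. In tumors 18 were on, against 9.87% of all genes low in wild-type cells. Against H3.1K36M cells 16 were higher (80%) and 2 lower (10%), where 42.5% and 34.2% of all genes were. Among other genes low in wild type 75.2% were higher and 5.82% lower, so the higher share was near theirs. A repeated GAAA element is known from the promoters of many genes induced by type I interferon.

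Oas1a and Oasl2 belong to the oligoadenylate synthetase family, which senses double-stranded RNA. Oas1a was at 1.31 and 2.82 in wild-type cells, 78.2 and 85.5 in H3.3K36M cells and 45.9 and 52.7 in H3.1K36M cells. It rose from 16.7, 10.11 and 14.4 in control siRNA to 65.2, 63.3 and 73.9 in HMT siRNA cells (log2 fold change 2.24 ± 0.23 SE, limma adjusted p = 2.34e-07), and the groups did not overlap. The tumors ran from 4029 to 6685 with a median of 5843 (log2 6.80 ± 0.19 against H3.1K36M cells, adjusted p = 2.77e-09). Oasl2 went the same way. It rose from 25.8, 30.1 and 10.4 to 100.7, 94.003 and 80.9 after HMT siRNA (log2 2.13 ± 0.30, adjusted p = 1.76e-05) and had a tumor median of 6529.

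Trim30a, an interferon-induced regulator of innate signalling, was at 3.94 and 2.82 in wild-type cells and at 207 and 215 in H3.3K36M cells. In HMT siRNA cells it rose from 37.2, 58.7 and 52.7 to 110, 124 and 122 (log2 1.27 ± 0.17, adjusted p = 4.55e-06). Gsdmd, the pore-forming protein of pyroptosis, rose from 65.3, 66.5 and 57.1 to 113, 103 and 111 (log2 0.79 ± 0.13, adjusted p = 7.09e-05) and ran from 3035 to 4495 in tumors. Sp100, a nuclear body protein induced by interferon, rose by log2 1.49 after HMT siRNA, Havcr2 by 2.03 and the class I gene H2-Q8 by 0.87. Gimap9, a lymphocyte GTPase, was at 7.59, 3.76 and 6.92 in control siRNA and at 12.2, 13.4 and 20.6 in HMT siRNA cells. Each of these 4 genes was higher in every HMT siRNA library than in any control siRNA library. Macrophage markers summed to 139.6 to 190.8 in control siRNA and 274.5 to 322.8 in HMT siRNA cells (1 of 13 on in each group), and Ptprc, C1qa and C1qb were listed at 0 in both. Gm4902, listed as a predicted gene and placed outside this role, is named Phf11b in RefSeq. It was at 9.17, 2.82 and 5.29 in control siRNA and at 40.3, 29.7 and 21.2 in HMT siRNA cells, and stood at 1247 to 2191 in tumors.

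Other genes of the role were not raised to a testable level by the knockdown. Gpnmb, a glycoprotein of macrophages and osteoclasts, was at 544 and 525 in H3.3K36M cells and listed at 0 in all 3 control siRNA libraries, and it reached at most 0.746 in HMT siRNA cells. Its tumor levels ran from 3105 to 4852. Slfn2, a Schlafen protein of T cells and macrophages, was at 77.5 and 82.0 in H3.3K36M cells and at 4012 to 5568 in tumors. Irf5, a transcription factor of myeloid cells, had the largest log2 fold change of any higher member in tumors against H3.1K36M cells (7.86 ± 0.12, adjusted p = 7.19e-11), from 13.96 and 12.46 to a range of 2835 to 3812. Wdfy4, a gene of dendritic cell antigen presentation, was higher by log2 6.92. Plac8, with both H3.1K36M libraries under 10, ran from 979 to 2413 in tumors. Macrophage markers were also higher in tumors than in cultured cells, and among tumors their sum was highest in tumor 4. In that tumor Plac8 (979) and Slfn2 (4012) were lowest, while Gpnmb (4852) and F13a1 (9539), a gene of another role, were highest. The part of macrophages in these levels was not tested. H2-M10.1 and Siglecg of the immune role fell, by 2.25 and 2.10 on the log2 scale.

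Promoters are shown for the 3 members with a repeated GAAA element whose HMT siRNA libraries all lay above control siRNA. The windows are the 250 bases before the annotated start in RefSeq, build GRCm38.p6, which is not the mm9 build of the files, and capitals mark each match on either strand to GAAA, any 2 bases and GAAA again, overlapping matches merged. Oas1a lies at chr5:120907526-120907775, Trim30a at chr7:104465194-104465443 and Gm4902 at chr14:59341331-59341580, all on the minus strand.
Oas1a: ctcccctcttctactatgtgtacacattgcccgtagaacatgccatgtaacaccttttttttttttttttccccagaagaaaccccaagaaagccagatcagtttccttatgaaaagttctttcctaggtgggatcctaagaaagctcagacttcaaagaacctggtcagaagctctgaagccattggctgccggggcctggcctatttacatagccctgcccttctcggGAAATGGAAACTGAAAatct
Trim30a: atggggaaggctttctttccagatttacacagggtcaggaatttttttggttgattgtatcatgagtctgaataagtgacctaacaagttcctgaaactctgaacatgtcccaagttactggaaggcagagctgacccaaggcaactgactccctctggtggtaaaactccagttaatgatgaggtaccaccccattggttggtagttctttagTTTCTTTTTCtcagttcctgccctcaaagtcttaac
Gm4902: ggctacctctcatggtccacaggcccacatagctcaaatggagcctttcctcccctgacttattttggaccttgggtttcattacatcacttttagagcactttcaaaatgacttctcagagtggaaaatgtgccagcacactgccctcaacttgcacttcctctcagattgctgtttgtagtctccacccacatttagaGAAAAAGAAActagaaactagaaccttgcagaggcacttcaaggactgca
Over windows of 300 bases (250 before and 50 after the start) 5 of 123 members with a RefSeq window held the element (Kcnab1, Oas1a, Trim30a, Plxnc1 and Gm4902), or 4.07%, against 3.35% of all windows. Its share was near that of all promoters, and a match is no measured binding. Only 123 of 159 members had a window, under 80%, so the planned count of CpG-rich promoters is void.

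Secreted and protease genes, 10 in all, held both the highest member and the highest tumor level. After HMT siRNA 3 of 4 tested were higher, against 32.5% of all genes tested. Of these 3, Apob and Napsa were tested only through their HMT siRNA libraries. Itih2 rose from 203, 195 and 185 in control siRNA to 709, 704 and 727 in HMT siRNA cells (log2 1.87 ± 0.07, adjusted p = 8.14e-13), and in the same table H3.3K36M cells stood at 713 and 731. In tumors it dropped to between 12.1 and 57.9 in 5 of the 6, with tumor 6 at 317 (log2 -6.60 ± 1.04 against H3.1K36M cells, adjusted p = 3.26e-04, and log2 -7.19 without tumor 6). Apob, the apolipoprotein of liver and gut lipoproteins, was at 230 and 242 in H3.3K36M cells and went from 0, 1.25 and 0 in control siRNA to 18.8, 12.7 and 17.5 in HMT siRNA cells. It was listed at 0 in 5 tumors and stood at 2.01 in tumor 1. Napsa, an aspartic protease of lung and kidney, was at 0, 6.27 and 0 in control siRNA and at 12.2, 16.4 and 18.6 in HMT siRNA cells.

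F13a1, the A subunit of clotting factor XIII and a product of tissue macrophages, was at 1.31 and 0 in wild-type cells and at 287 and 299 in H3.3K36M cells. It had the highest tumor median of all members, 7046, with a range of 4330 to 9539, while HMT siRNA cells held at most 1.11. Fcgbp, a mucin-like IgG Fc-binding protein, was at 300 and 290 in H3.3K36M cells, at 35.4 and 32.1 in H3.1K36M cells and at 1036, 483.5, 571, 126, 1449 and 144 in tumors 1 to 6. Keratinocyte and skin markers summed to 31140, 8108, 12530, 549.9, 28120 and 394 in the same tumors, and their part in the Fcgbp level was not tested. Prss22, an epithelial serine protease, ran from 972 to 2751 in tumors, against 18.3 and 15.3 in H3.1K36M cells (log2 6.83 ± 0.34, adjusted p = 1.26e-07). Of the 10 secreted members 5 were higher and 4 lower in tumors than in H3.1K36M cells. Over all genes tested 42.5% were higher and 34.2% lower, and over other genes low in wild type 75.2% and 5.82%.

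Among 9 genes of the cytoskeleton, junctions and adhesion, 7 were on in all tumors and 3 of 4 tested were higher after HMT siRNA. Of all genes low in wild-type cells 9.87% were on in all tumors, and of all genes tested 32.5% were higher after HMT siRNA. Ankrd1 rose from 21.2, 22.6 and 32.9 in control siRNA to 189, 163 and 192 in HMT siRNA cells (log2 2.80 ± 0.17, adjusted p = 4.18e-10). Pkp2 rose from 88.02, 86.6 and 60.5 to 188, 189 and 224 (log2 1.36 ± 0.14, adjusted p = 3.62e-07). In tumors Pkp2 was at 20.2 to 33.5 in 5 of the 6 and at 357 in tumor 6, and it was lower than in H3.1K36M cells by 4.95 on the log2 scale, or by 5.57 without tumor 6. Add2, the beta subunit of the membrane skeleton protein adducin, was at 595 and 592 in H3.3K36M cells, 249.8 and 244 in H3.1K36M cells and 780 to 1237 in tumors, but at most 3.76 in either siRNA group. Fat2, a large protocadherin of epithelia and cerebellum, ran from 294 to 1192 in tumors. Pof1b, an epithelial actin-binding protein, was at 147 and 157 in H3.3K36M cells and listed at 0 in all 3 HMT siRNA libraries. In tumors 1 to 6 it was at 61.7, 14.5, 29.9, 2.02, 43.3 and 2.29, high where the keratinocyte and skin markers were high, and their part was not tested.

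The 19 ligands, receptors and signal transducers moved both ways, with 12 on in all tumors, against 9.87% of all genes low in wild-type cells. After HMT siRNA 4 of 11 tested were higher, near the 32.5% of all genes tested, and 2 were lower, against 32.6%. Of the 4, Plekhg1 and Rps6ka6 were tested only through their HMT siRNA libraries. Rnf128 fell from 173, 196 and 209 to 94.1, 75.4 and 94.9 (log2 -1.12 ± 0.12, adjusted p = 6.15e-07), and Klhl13, a cullin-3 adaptor, from 45.5, 38.9 and 62.3 to 16.6, 16.4 and 14.4 (log2 -1.54 ± 0.23, adjusted p = 2.34e-05). Eda, the ectodysplasin ligand of skin appendages, was at 1.31 and 0 in wild-type cells, 247 and 234 in H3.3K36M cells, 69.8 and 62.3 in H3.1K36M cells and 56.2 to 89.5 in tumors. It did not pass either test. Vegfc, the lymphatic growth factor, was at 199.5 and 177 in H3.3K36M cells and at 103 to 307 in tumors. Its difference from H3.1K36M cells (log2 1.13) was lost without either H3.1K36M library (adjusted p = 0.0866 and 0.0851) and after quantile normalisation (0.961). Arhgap36 fell from 1151 and 1137 in H3.1K36M cells to between 0 and 13.8 in tumors (log2 -8.64 ± 0.96, adjusted p = 3.31e-05), the largest fitted change of the members.

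Ostn, the muscle and bone peptide osteocrin, rose from 15.2, 18.8 and 19.025 to 32.1, 32.1 and 25.8 after HMT siRNA (log2 0.73, adjusted p = 0.0138), a call lost without HMT siRNA library 1 or 2 (0.0566 and 0.0623). It was at 84.3 and 91.9 in H3.3K36M cells and at most 4.59 in tumors. The Wnt feedback gene Axin2 was at 127 and 103 in H3.3K36M cells, 123 and 136 in H3.1K36M cells and 955 to 1510 in tumors, and at most 5.16 in either siRNA group.

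The 24 neuronal, synaptic and axon guidance genes form the largest named role. In H3.1K36M cells 5 were on, against 45.9% of all members and 1.7% of all genes low in wild-type cells. In all tumors 10 were on, against 49.1% and 9.87%. After HMT siRNA 1 of 7 tested was higher and none lower. Over all genes tested 32.5% were higher and 32.6% lower after HMT siRNA. Pcdh11x, an X-linked protocadherin of the brain, was at 3.94 and 2.82 in wild-type, 515 and 494 in H3.3K36M and 38.4 and 33.5 in H3.1K36M cells. In the tumors, grown from the same H3.3K36M line, it was at most 2.71. Crmp1, a cytosolic mediator of semaphorin signals, was at 437 and 425 in H3.3K36M cells, 292 and 276 in H3.1K36M cells and 257 to 489 in tumors. Phactr1 was the higher one after HMT siRNA, from 105, 91.6 and 88.2 to 144, 150.5 and 138 (log2 0.60 ± 0.12, adjusted p = 2.55e-04). Nos1, the neuronal nitric oxide synthase, was at 382 and 332 in H3.3K36M cells and at 0.670 to 12.6 in tumors. Cadm3 was listed at 0 in both wild-type libraries, stood at 104 and 107 in H3.3K36M cells and ran from 21.3 to 207 in tumors.

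Among 16 metabolic and xenobiotic enzymes 12 were low in control siRNA cells, 6 were on in H3.1K36M cells and 5 in all tumors. Of all genes low in wild-type cells these shares were 95.7%, 1.7% and 9.87%. Hdc, which makes histamine, was at 7.87 and 9.88 in wild-type and 617 and 684 in H3.3K36M cells. It stood at 110 and 127 in H3.1K36M cells and at 110 to 388 in tumors, where mast cell markers were at 601 to 4072. The part of mast cells in its tumor level was not tested. Aox3, an aldehyde oxidase, was at 490 and 489 in H3.3K36M cells and at 28.9 to 63.8 in 5 tumors, with tumor 6 at 244. Inmt, a methyltransferase of indoles, rose after HMT siRNA from 10.6, 15.1 and 17.3 to 53.1, 26.1 and 37.1 (log2 1.34 ± 0.29, adjusted p = 6.39e-04). Car8, a catalytically inactive carbonic anhydrase relative, rose by log2 1.34 after HMT siRNA and was at most 8.67 in tumors. Cytochrome P450 genes gave 5 members of 77 that were low in wild-type cells (6.49%, against 2.07% of all genes low there).

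Of 8 genes of transcription and chromatin 3 were on in H3.1K36M cells, against 1.7% of all genes low in wild-type cells. Sfmbt2, a Polycomb-group protein that binds methylated histone tails, was at 9.23 and 8.47 in wild-type, 412 and 409 in H3.3K36M and 351 and 348 in H3.1K36M cells. It rose from 66.8, 56.5 and 86.5 to 141, 119 and 131 after HMT siRNA (log2 0.90 ± 0.15, adjusted p = 6.94e-05) and ran from 62.4 to 110 in tumors. Tlx2, a homeobox factor of enteric neurons, was at 219.7 and 219 in H3.3K36M cells, 13.96 and 9.58 in H3.1K36M cells and 441 to 617 in tumors. Aff2, the X-linked gene of the FRAXE locus, fell after HMT siRNA from 50.1, 32.6 and 50.2 to 24.3, 20.9 and 22.7 (log2 -0.91 ± 0.22, adjusted p = 1.99e-03) and was at most 2.29 in tumors. Asxl3 was at most 1.44 in tumors, so it was low in tumors as in H3.1K36M cells.

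Of 12 transporters and channels 7 were on in H3.1K36M cells and 6 in all tumors, against 1.7% and 9.87% of all genes low in wild-type cells. Fxyd2, the gamma subunit of the sodium pump, was at 333 and 313 in H3.3K36M cells, 44.0 and 34.5 in H3.1K36M cells and 56.2 to 544 in tumors. Slco4a1, an organic anion transporter, was higher in H3.1K36M (406 and 377) than in H3.3K36M cells (153 and 158). Slc8a1 fell after HMT siRNA from 269, 233 and 247 to 138, 147 and 133 (log2 -0.83 ± 0.10, adjusted p = 9.81e-07). Slc1a6, a glutamate transporter of the cerebellum, was at 124 and 105 in H3.3K36M cells, 85.1 and 98.7 in H3.1K36M cells and at most 1.15 in tumors.

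The germline role holds 8 members. By symbol, germline families (such as Tex, Tdrd, Rhox and Mage) gave 2 members of 68 genes low in wild-type cells (2.94%). This was near the 2.07% of all genes low there. Nxf3, a testis relative of the mRNA export factor, was at 350.3 and 373 in H3.3K36M cells, 277 and 317 in H3.1K36M cells and 525 to 1114 in tumors, and at most 3.32 in the siRNA groups. Dppa4, a pluripotency and early embryo factor, was at 140 and 146 in H3.3K36M, 121 and 134 in H3.1K36M and 20.6 to 104 in tumors. The sperm-egg adhesion gene Zan was at 138 and 130 in H3.3K36M cells and 60.6 to 120 in tumors. Magea8, a cancer-testis antigen, was listed at 0 in both wild-type and all 3 control siRNA libraries and stood at 115 and 125 in H3.3K36M cells and 49.4 and 49.5 in H3.1K36M cells. Crisp1, an epididymal secretory protein, was at 91.2 and 74.1 in H3.3K36M cells and at most 2.88 in H3.1K36M cells and tumors. Dmrtc1c and Dmrtc1c2 have identical values in every library, as near-identical copies, and carry the evidence of a single gene.

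The other 33 members include predicted and uncharacterised genes. Gm773 was at 629 and 669 in H3.3K36M cells and at 525 to 718 in tumors. 3830417A13Rik was at 506 and 551 in H3.3K36M, 644 and 630 in H3.1K36M and 58.5 to 174 in tumors. Gm10147 was at 383 and 436 in H3.3K36M cells. All 3 lie on the X chromosome. A930038C07Rik, named Ndnf in RefSeq and a neurotrophic secreted factor, was at 397 and 378 in H3.3K36M cells and 13.2 to 24.1 in tumors. Fam110c rose after HMT siRNA from 10.6, 17.6 and 24.2 to 75.3, 79.8 and 85.6 (log2 2.21 ± 0.25, adjusted p = 7.95e-07), and Gm5622 was at 1.52, 2.51 and 3.46 in control siRNA and at 16.99, 14.04 and 12.4 in HMT siRNA cells. Predicted genes with close copies (such as Gm8300, Gm5622, Gm15093, Gm15107 and Gm15127), the cytochromes, the class I genes and the olfactory receptors may share reads with relatives, and their levels are uncertain.

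The X chromosome held 27 members (17%), but 5.82% of the genes low in wild-type cells. The 27 include Dmrtc1c and Dmrtc1c2, which carry the evidence of a single gene. By chromosome 6.12% of X-linked genes low in wild-type cells were members, against 0.871% to 3.28% on the autosomes. In H3.1K36M cells 14 of the 27 were on, and 59 of 132 autosomal members (51.9% and 44.7%). In all tumors 7 of the 27 were on (25.9%), against 71 of 132 autosomal members (53.8%). Of other genes low in wild-type cells 4.35% on the X and 9.32% on autosomes were on in all tumors. X-linked members also made up 4 of the 6 that fell after HMT siRNA (Klhl13, Rnf128, Aff2 and Mageh1). Among members with a library at 10 or more in both siRNA groups, 8 lay on the X, with 4 lower, and 41 on autosomes, with 20 higher and 2 lower. Of all such genes 27.4% on the X were higher and 37.2% lower, and 32.7% and 32.2% on autosomes. In tumors against H3.1K36M cells, under the same condition, 2 were higher and 8 lower of 19 X-linked members, and 58 and 25 of 109 autosomal ones. All X-linked genes also went mostly down in tumors, with 20.1% higher and 57% lower, against 36.9% and 38.5% on autosomes. These shares were noticed after the values were seen, and they were not tested.

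**Figure D5:**
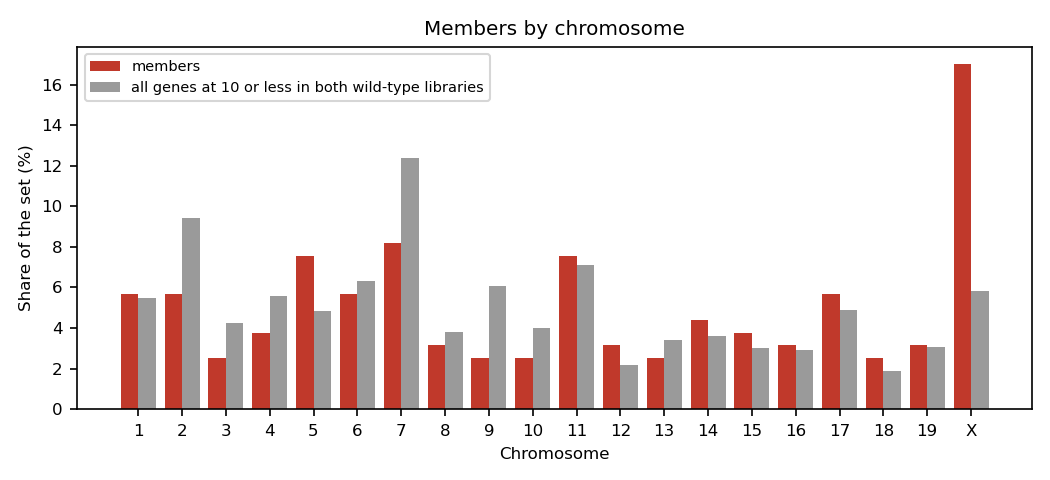
Share of the 159 members (red) and of the 7690 genes at 10 or less in both wild-type libraries (grey) on each chromosome, in percent; the Y, with no member, and unplaced genes are not drawn. The X holds 17% of the members and 5.82% of the low genes, the widest gap of any chromosome.

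Few members lay side by side: 8 (5.03%) were next to another member in the RefSeq gene order, against 2.15% of other genes low in wild-type cells that were next to a member. The pairs were Robo1 and Robo2 on chromosome 16, and 3 pairs on the X: 3830403N18Rik and Gm773, Dmrtc1c and Dmrtc1c2, and Pcdh11x and Nap1l3. Dmrtc1c and Dmrtc1c2 have identical values in every library, so their pair raises the share without separate evidence. In tumors Gm773 was at 525 to 718 and its neighbour 3830403N18Rik at 47.5 to 243.97, and Robo1 at 15.2 to 52.8 and Robo2 at 25.3 to 81.4. Among gene families set by symbol, the interferon-induced genes gave the largest share of members, 4 of 22 that were low in wild-type cells (18.2%; Irf4, Irf5, Oas1a and Oasl2), against 2.07% over all such genes. Protocadherins and cadherins gave 3 of 40 and solute carriers 6 of 140. Collagens, homeobox factors outside Hox and serine protease inhibitors gave none, of 7, 49 and 40.

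Tumors differed among themselves for many members that all of them held on. Over the 78 such members the coefficient of variation across tumors had a median of 23.7%, from 9.73% for Irf5 to 145% for Phactr1, and it was under 20% for 28. Phactr1 was at 57.1 to 119 in 5 tumors and at 818 in tumor 6.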

How the data were processed

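RNA from 18 libraries was sequenced, and the authors deposited 3 tables of 20325 genes. The deposited values are a signal, estimated counts brought to a common level per table by median normalisation, per the labels' sample descriptions. Bowtie 1.0.0, RSEM 1.2.12 and mm9 are named, without their roles, per the submitters' processing notes. Each table was scaled separately, so tests, ratios and counts of libraries above or below others stay within a table. Member levels in H3.3 wild-type and H3.3K36M cells come from the table that chose the members unless stated otherwise. Beside levels of another table they are descriptions on unlike scales, by 1.30 to 1.32 times for the siRNA table. Only 35.1% to 56.0% of values were whole multiples of 1 read (tolerance 0.01), so no count test was used.

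The 2 tests used limma 3.58.1 (R 4.3.3; trend, robust) on log2(value + 1), two-sided, with Benjamini-Hochberg adjustment over all genes tested and a threshold of 0.05. Genes needed 10 or more in as many libraries as the smaller group holds. Fold changes on this scale understate low genes. The script was tested on simulated data. Other steps used Python 3.11.15, pandas 2.3.3, numpy 2.4.6 and matplotlib 3.10.9.

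The members, roles, families and tests were chosen with earlier results of these data known. Members were named by rule: the 6 to 10 highest in each group, the highest that were low in H3.1K36M cells or tumors, the largest tested changes (10 after HMT siRNA, 6 per direction in tumors), up to 4 per role, 3 on each side of each limit, those on in H3.3K36M cells alone, and Fcgbp, F13a1, Eda and Apob. Others named in the text were chosen after their values were seen. Alternatives covered pseudocount, filter, normalisation, limma options, fits with more libraries, a replicate block, each library left out, and other limits for membership. Genome coordinates of the files were not used, since the reference tables (RefSeq, GRCm38.p6) are of another build.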

Additional observations from a re-analysis of the deposited data

Results flagged for a closer look

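In 20 named members 1 of the 6 tumors lay far from the other 5, by a gap test that flags about 1 in 20 groups by chance. In 17 of them it was the highest value of tumor 6. These values were 822 for Ankrd1, 244 for Aox3, 13.8 for Arhgap36, 140 for Fam110c, 209 for Gm10147 and 1215 for Havcr2. They were 317 for Itih2, 112 for Magea8, 12.6 for Nos1, 34.4 for Pcdh17, 818 for Phactr1 and 357 for Pkp2. The last were 141 for Rhbdl2, 1.15 for Slc1a6, 713 for Slc8a1, 3661 for Trim30a and 307 for Vegfc. Apob was highest in tumor 1 (2.01) and listed at 0 in the others. Asxl3 was lowest in tumor 2, at 0, and Prss22 lowest in tumor 5, at 972. Over all 159 members 36 were flagged, 30 of them for a high tumor 6. Tumor 6 had summed skeletal muscle markers of 21550, against 1191 to 8439 in the others, endothelial markers of 32210 (13420 to 21950) and NK cell and lymphocyte markers of 9463 (2228 to 4019). Its macrophage (234600), keratinocyte and skin (394), Schwann and nerve (1701) and mast cell (601) markers summed to the lowest of the 6 tumors. The part of all these cells in the levels of the members was not tested.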

How the results depend on the processing

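With other limits the rule gave 96 members (5 and 50), 82 (10 and 100) and 248 (20 and 50), and leaving out 1 library of the rule gave 177 to 183. After HMT siRNA 60 members were higher with no filter on low values, because 154 were then tested, and 2 were lower outside the X chromosome, a split chosen after seeing the data. With only genes that reach 10 in a library of both groups, also chosen after seeing the data, 33 members were lower in tumors, because fewer were tested. Leaving out each library gave 24 to 34 higher and 5 to 7 lower members there, and 61 to 69 higher and 43 to 60 lower in tumors against H3.1K36M cells. Where 1 H3.1K36M library was left out, the remaining one was assumed to vary like the tumors. Members on numbered 77 to 80 in H3.1K36M cells, 8 to 10 in control siRNA, 13 in HMT siRNA and 78 to 79 in tumors when a library was left out, and members low at 14, 108 to 111, 87 to 89 and 25 to 29. Without the interferon, innate and immune cell role, also chosen after seeing the data, 60 members were on in all tumors. Against H3.1K36M cells, 2 genes without a call changed sign and were called lower after quantile normalisation. Kcnab1 went from log2 0.14 (limma adjusted p = 0.842) to -1.66 (adjusted p = 0.022). Dlgap3 went from log2 0.49 (adjusted p = 0.142) to -1.15 (adjusted p = 0.00864), and the cause was not tested. Of 92 tests of named members, 19 changed their call under at least 1 alternative. Samples of the siRNA groups share replicate numbers, but same-numbered libraries correlated at only 0.0826, 0.101 and 0.112, so the numbers were not taken to pair them, although each HMT siRNA library correlated best with its own number. With the replicate block 29 members were higher and 6 lower after HMT siRNA, and 69 and 60 in tumors. The counts under these alternatives stand without the shares of all genes, so they are not read as results about the members. The CpG alternative was not run. Levels that stand for a few reads are imprecise, and 103 members were too low to test in the siRNA cells.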
